A study of Arabidopsis thaliana with 6 samples.

Results

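SIM and the SMR genes of Arabidopsis thaliana encode small plant inhibitors of cyclin-dependent kinases (CDKs). Described here are 9 of them, SIM, SMR1, SMR3, SMR4, SMR5, SMR8, SMR10, SMR11 and SMR12, among 21125 genes listed for 6 root tip libraries. They were taken by gene ID. They are the SIM and SMR genes left after setting apart 5 SMR genes that had lower values in the mutant in an earlier look at the same libraries. The comparison between genotypes therefore helped choose them, and their differences between genotypes are given as a description, with no test.

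The study measured RNA in scl28-3 plants, mutants of the GRAS-family transcription factor SCL28, and in wild-type plants, with 3 libraries of each genotype. Each library came from about 300 root tips of 2 mm, cut from plants 6 days old and grown in continuous light at 21 °C on medium with sucrose. The design text calls the samples of a genotype biological replicates, and the labels name no treatment and no further allele. How the replicates were separated (plates, days) is not given, so errors and p-values measure the spread between these samples.

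CDKs bound to cyclins drive plant cells through DNA replication and into mitosis. SIM, named after the mutant siamese, holds back mitosis in developing leaf hairs, whose cells then go on copying their DNA without dividing. This repeated copying, endoreplication, also marks root cells as they leave the dividing zone of the tip and elongate. SMR1, also called LGO, is known for the giant cells of sepals, SMR4 for limiting divisions in the stomatal lineage, and SMR5 for its induction by oxidative stress and DNA damage through the transcription factor SOG1.

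The libraries held between 13997209 and 16781226 reads in scl28-3 and between 10400347 and 11573324 reads in wild type, as recovered from the deposited CPM, a read count scaled to the total of its library. The mutant libraries were 1.35 times as deep on average (exact permutation test, two-sided, p = 0.1, its lower bound with 3 libraries a side). A count of 3 reads was worth 0.179 to 0.214 CPM in scl28-3 and 0.259 to 0.288 CPM in wild type. SCL28 itself was at 17.72, 14.92 and 13.65 CPM in scl28-3 and at 44.5, 42.59 and 42.38 CPM in wild type, lower in every mutant library (log2 fold change -1.48 ± 0.11, SE, limma adjusted p = 0.00227). Markers of the root meristem, mitotic cells, root cap, root hairs, endodermis and vascular tissue were above 0 in every library. The 4 shoot markers together reached 6.57 to 12.9 CPM in scl28-3 and 8.21 to 10.6 CPM in wild type, with LHCB2.1 at 0 in at least 1 library. Wild-type library 1 stood apart from the other wild-type libraries, with a chi-square per degree of freedom over genes of 13.0 and 15.9 against them and 4.73 between those 2.

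The 9 genes lie on chromosomes 1, 2, 3 and 5. In the RefSeq annotation of TAIR10.1, 8 of them have a single exon and SMR12 has 2. SIM (AT5G04470) spans chr5:1266625-1267416 and SMR1 (AT3G10525) spans chr3:3281306-3282131, both on the minus strand. SMR3 (AT5G02420) and SMR4 (AT5G02220) are the closest pair, 81.1 kb apart on chromosome 5 with 18 protein-coding genes between them. SIM and SMR1 had the most similar coding sequences, with 275 identical bases in a global alignment, 71.6% of the shorter sequence. By this measure the next pair, SMR5 and SMR12, was at 69.9% and the lowest, SMR10 and SMR11, at 51.4%. The share refers to the shorter sequence, so pairs of unlike length are not directly comparable. SIM and SMR1 have 384 and 387 coding bases, while SMR5 and SMR12 have 249 and 486. No window of 50 bases from the exons of the other 8 genes occurs elsewhere in the genome, while SMR10 has 2 such windows out of 902.

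A gene on the opposite strand overlaps 3 members. SIM shares 249 exon bases, 31.4% of its exon, with AT5G04475, and SMR1 shares 333 exon bases, 40.3%, with AT3G10527. Neither of those partners has values here. SMR5 (AT1G07500) lies wholly inside an exon of FTSH10, a mitochondrial protease gene at 52.6 ± 3.84 CPM in scl28-3 and 49.7 ± 2.21 CPM in wild type (SD, n = 3 each). The strand setting of the counting is not given in the sources used here. If it ignored the strand, reads from the shared bases could not be told apart, which for SMR5 concerns the whole transcript.

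The 250 bases before the annotated start are printed for SIM and SMR1, the most abundant members, and for SMR4, the member whose window held both motifs searched for. The sequences are from the TAIR10.1 genome, 5′ to 3′ on the gene's own strand, and capitals mark motif matches.
SIM, chr5:1267417-1267666, minus strand: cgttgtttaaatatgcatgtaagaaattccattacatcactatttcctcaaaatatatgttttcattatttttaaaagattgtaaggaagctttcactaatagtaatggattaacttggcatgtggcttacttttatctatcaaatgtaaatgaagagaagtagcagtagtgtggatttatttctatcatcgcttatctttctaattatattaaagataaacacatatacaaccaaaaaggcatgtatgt
SMR1, chr3:3282132-3282381, minus strand: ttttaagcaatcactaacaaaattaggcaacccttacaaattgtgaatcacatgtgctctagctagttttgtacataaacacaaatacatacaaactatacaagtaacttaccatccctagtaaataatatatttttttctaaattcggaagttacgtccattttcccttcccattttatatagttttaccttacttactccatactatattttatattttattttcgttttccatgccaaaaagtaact
SMR4, chr5:442188-442437, minus strand: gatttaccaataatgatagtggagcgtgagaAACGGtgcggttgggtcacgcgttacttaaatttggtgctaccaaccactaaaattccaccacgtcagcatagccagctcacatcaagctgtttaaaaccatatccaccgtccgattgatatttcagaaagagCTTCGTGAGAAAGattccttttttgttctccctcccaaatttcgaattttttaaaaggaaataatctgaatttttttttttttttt
The search covered both strands for AACGG, the core of the element bound by MYB3R factors of the mitotic programme, and for CTTNNNNNNNAAG, the palindromic motif reported for SOG1. AACGG was found in the windows of 3 of the 9 members, namely 1 match in SMR4, 219 bases upstream, 2 in SMR11, 117 and 80 bases upstream, and 1 in SMR12, 49 bases upstream. Of 27443 protein-coding genes, 20.6% held it in a window of the same length. CTTNNNNNNNAAG was found in SMR4, as CTTCGTGAGAAAG 86 bases upstream, and in SMR5, as CTTCCAGAACAAG 96 bases and CTTATTAGGAAAG 32 bases upstream (chr1:2305115-2305127 and chr1:2305051-2305063, minus strand). The window of SMR5 overlaps FTSH10 on the opposite strand, while that of SMR4 overlaps no gene. Of the same genes, 9.71% held this motif. The windows of SIM, SMR1, SMR3, SMR8 and SMR10 held neither. No match of 1 motif overlapped a match of the other, and a match is a run of letters, not a measured binding site.

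SIM, which holds back mitosis in leaf hairs, was at 43.15, 47.57 and 52.62 CPM in scl28-3 and at 36.64, 54.13 and 54.84 CPM in wild type, from 424 to 883 reads. The genotypes overlapped, and wild-type library 1 was the lowest of the 6. SMR1 was at 25.65, 34.48 and 32.36 CPM in scl28-3 and at 24.37, 40.29 and 40.19 CPM in wild type. Again the ranges overlapped, with library 1 lowest in each genotype. SMR3 was at 18.22, 21.53 and 22.53 CPM in scl28-3 and at 15.64, 19.04 and 25.88 CPM in wild type. The mutant libraries lay inside the wild-type range. These 3 genes were above 15 CPM in every library.

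The next 4 members were between 1 and 6 CPM. SMR8 was at 4.57, 5.56 and 5.01 CPM in scl28-3 and at 5.27, 4.81 and 5.62 CPM in wild type, the narrowest spread of the 9 between lowest and highest library (1.23-fold). SMR11 was at 4.29, 3.31 and 3.16 CPM in scl28-3 and at 3.02, 2.88 and 4.56 CPM in wild type, so that the highest and the lowest value were both wild type. SMR4 was at 3.29, 2.6 and 2.8 CPM in scl28-3 and at 1.73, 2.12 and 2.98 CPM in wild type, from 20 to 47 reads. For SMR4, 2 of 3 wild-type libraries were below every mutant library and the remaining one lay within the mutant range. SMR10 was at 1.86, 1.97 and 1.73 CPM in scl28-3 and at 2.16, 2.21 and 1.49 CPM in wild type, with the mutant libraries inside the wild-type range.

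SMR5 and SMR12 were near the limit of detection. SMR5 was at 0.29, 0.21 and 0.3 CPM in scl28-3 and at 0.17, 0.29 and 0.26 CPM in wild type, which is 2 to 5 reads per library. SMR12 was at 0.36, 0.35 and 0.3 CPM in scl28-3 and at 0.26, 0.67 and 0.44 CPM in wild type, which is 3 to 7 reads. The ranges of the genotypes overlapped for both genes, and small differences cannot be resolved from so few reads. Neither gene passed the filter on low counts that the other 7 members passed. The SMR5 values also depend on the unknown strand setting, since its whole exon is shared with FTSH10.

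**Figure D1:**
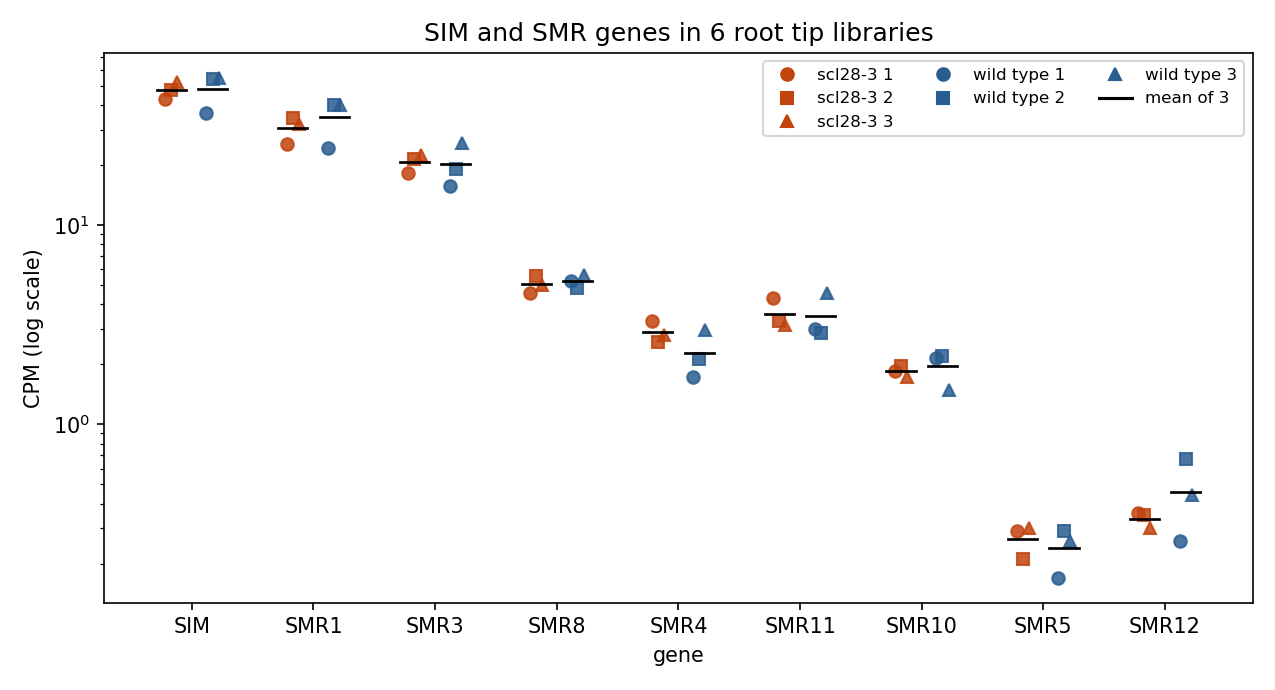
CPM on a log axis for the 9 genes in each library, with scl28-3 in red and wild type in blue, 1 symbol per library number and a black line at the mean of 3. The genotypes overlap for all 9, and SIM, SMR1 and SMR3 lie above 15 CPM while SMR5 and SMR12 lie below 0.7 CPM.

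Levels of different genes were compared as CPM per kb of exon. SIM averaged 60.8 ± 9.08 CPM per kb over the 6 libraries (SD, n = 6), above 91.0% of the 21020 listed genes with a gene model. SMR1 averaged 39.8 ± 8.32 and SMR3 25.0 ± 4.40 CPM per kb. The median listed gene was at 7.05 CPM per kb, and the other 6 members were below it. SMR8 averaged 5.53 ± 0.45 CPM per kb, SMR4 3.51 ± 0.78, SMR11 3.48 ± 0.70 and SMR10 2.00 ± 0.28. SMR5 averaged 0.95 ± 0.20, subject to the unknown strand setting, and SMR12 0.78 ± 0.29 CPM per kb. The unknown setting also touches SIM and SMR1, with 31.4% and 40.3% of their exon bases shared, and any sum that holds them.

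Neighbours in this order were tested within libraries for the 8 genes with at least 3 reads in every library, which leaves out SMR5. Of the 7 neighbour pairs, 6 differed in the same direction in 6 of 6 libraries. For each of these the exact two-sided sign-flip permutation p was 0.03125, the smallest that 6 libraries can give, with an adjusted p of 0.0365 over the 7 pairs. The order came from the same libraries, and an error in a gene's length would repeat in each of them. At this bound the p-value says only that a ratio had the same direction in 6 of 6 libraries, whatever its size or spread. It is therefore no separate evidence for the order. SIM was 1.54-fold above SMR1, with a mean log2 ratio of 0.62 ± 0.14 (SD, n = 6), and SMR1 was 1.58-fold above SMR3. The widest gap was between SMR3 and SMR8, at 4.47-fold. SMR8 was 1.61-fold above SMR4, SMR11 1.73-fold above SMR10, and SMR10 2.66-fold above SMR12. SMR4 and SMR11 were not told apart, with a mean log2 ratio of 0.00 ± 0.22 and SMR4 higher in 4 of 6 libraries (exact permutation p = 0.969). Per kb of coding sequence in place of exon, SMR4 was above SMR11 in 6 of 6 libraries and 1.54-fold, and SMR8 and SMR4 no longer differed past the threshold (adjusted p = 0.0625, exact permutation). By that length SMR3 was 3.77-fold above SMR8 and SMR10 5.16-fold above SMR12. Without any 1 library no pair can pass, since 5 libraries give a p of at least 0.0625, while the 6 pairs kept their direction in every remaining library.

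**Figure D2:**
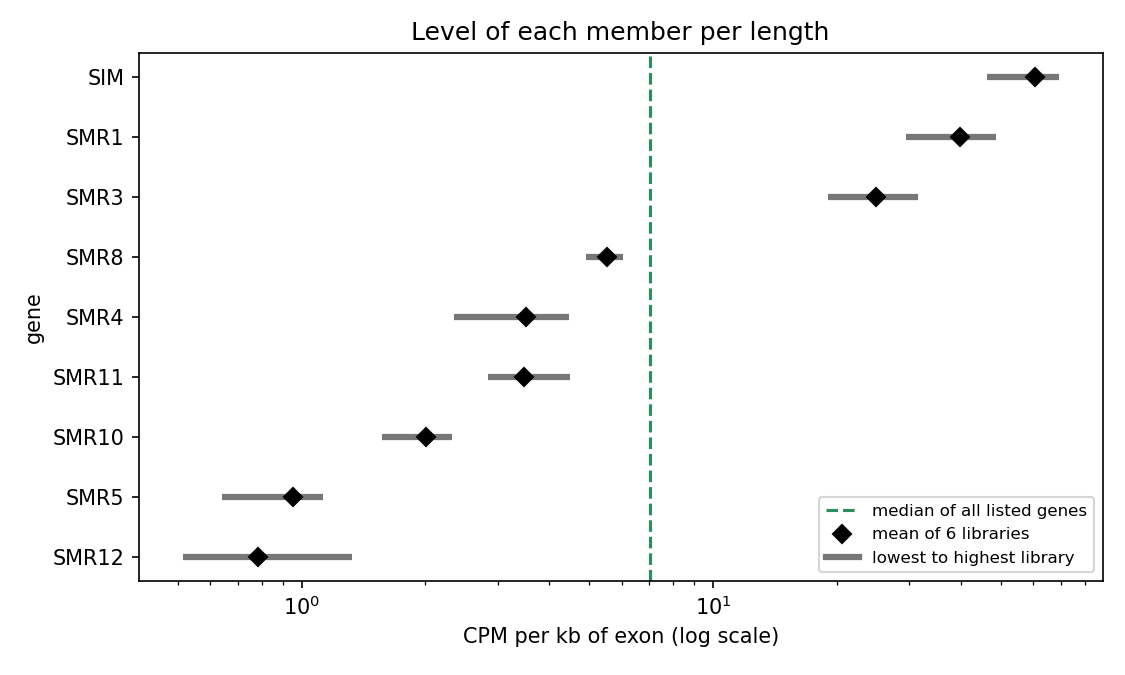
Level of each member as CPM per kb of exon on a log axis, with a diamond at the mean of 6 libraries, a bar from the lowest to the highest library and a dashed line at the median of all listed genes (7.05). SIM, SMR1 and SMR3 lie to the right of the median and the other 6 members to its left.

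SIM, SMR1 and SMR3 held most of the signal of the 9 genes. Summed per kb, the 9 members reached 139.5 ± 12.6 CPM per kb in scl28-3 and 144.2 ± 30.8 CPM per kb in wild type (SD, n = 3 each). SIM alone made up 43.3 ± 1.53% of that sum in scl28-3 and 42.5 ± 1.24% in wild type. With SMR1 and SMR3 the share was 88.1 ± 1.71% in scl28-3 and 88.7 ± 1.66% in wild type. The 5 SMR genes set apart for their lower mutant values summed to 1.97 ± 0.13 CPM per kb in scl28-3 and 7.91 ± 0.38 CPM per kb in wild type. Of the summed level of all 14 genes, the 9 members held 98.4 to 98.8% in scl28-3 and 93.6 to 95.5% in wild type.

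The differences of the members between genotypes follow as a description, since the SMR genes with lower mutant values had been set apart first. In the fit across 17879 genes, 0.0727% were called in either direction at an adjusted p under 0.05, 13 lower and none higher, while 399 were lower and 388 higher at an unadjusted p under 0.05. The CPM ranges of the genotypes overlapped for all 9 members, where 10.5% of tested genes had ranges that did not, and nothing is read from this count. Fold changes are on the log2(CPM + 0.5) scale, where differences of weakly expressed genes come out too small. On it 4 of the 7 members that passed the filter were below 0 and 3 above, with a median of -0.02, beside a median of 0.01 over all tested genes.

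Because of that choice, the 95% intervals below describe the spread of these libraries and set no limit on a difference that was missed. The log2 fold change of SIM was -0.02 ± 0.15 (SE, 95% interval -0.37 to 0.32). SMR1 had -0.17 ± 0.19, with an interval from -0.61 to 0.26. SMR3 was at 0.04 ± 0.17, with an interval from -0.33 to 0.42. Among the low members SMR4 had the highest value, 0.30 ± 0.20, with an interval from -0.16 to 0.75. SMR8 was at -0.07 ± 0.14, SMR10 at -0.06 ± 0.20 and SMR11 at 0.03 ± 0.20.

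Some of these values moved with 1 library. Without wild-type library 1, SIM was at -0.21, SMR1 at -0.41, SMR3 at -0.12 and SMR4 at 0.15. Without wild-type library 2, SIM was at 0.08 and SMR1 at -0.04, and without wild-type library 3, SMR3 was at 0.22 and SMR4 at 0.46. SMR10 ran from -0.22 without wild-type library 3 to 0.02 without wild-type library 2. The lowest value of SMR11 was -0.09, with scl28-3 library 1 left out, and its highest 0.20, with wild-type library 3 left out. SMR10 and SMR11 thus had no sign that held in every set of libraries, as was also so for SIM and SMR3. SMR1 kept a negative sign, from -0.41 to -0.04, and SMR4 a positive sign, from 0.15 to 0.46. SMR8 also kept its sign and ran from -0.13 without scl28-3 library 2 to -0.01 without scl28-3 library 1. At the division between these genes and the 5 SMR genes set apart, SMR1 was the lowest tested member, at -0.17, and SMR13 the nearest tested gene outside, at -0.72 ± 0.30.

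**Figure D3:**
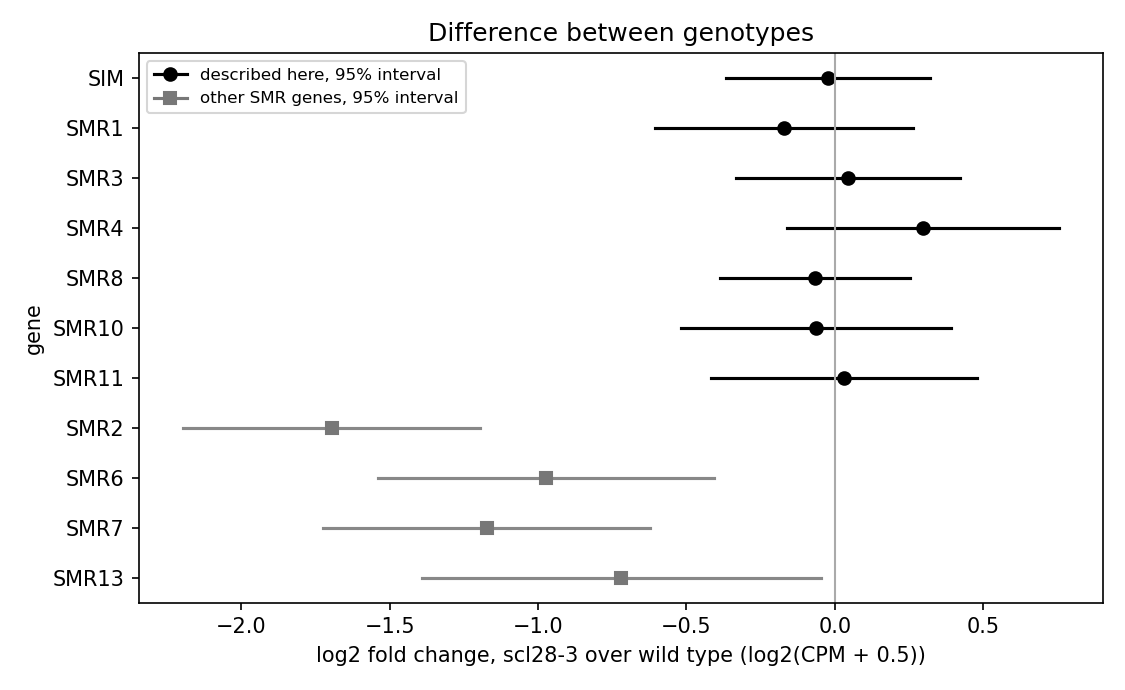
Log2 fold change of scl28-3 over wild type on the log2(CPM + 0.5) scale, with 95% intervals, for the 7 members that passed the filter (black circles) and the 4 other SMR genes that did (grey squares). The members lie between -0.17 and 0.30 and the other SMR genes between -1.70 and -0.72, a separation by which the genes were chosen.

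The libraries of a genotype differed by more than counting error over all genes, with a chi-square per degree of freedom between 4.73 and 15.9 for pairs of the same genotype, so a spread above counting error is not particular to a member. For SIM the coefficient of variation was 9.92% in scl28-3 and 21.2% in wild type, where counting error alone gives 3.72% and 4.31%. For SMR1 it was 15.0% in scl28-3 and 26.2% in wild type, against 4.64% and 5.09% from counting. For SMR3 it was 10.9% in scl28-3 and 25.8% in wild type, against 5.65% and 6.67% from counting. SMR8 stayed below its counting error, with 9.83% against 11.5% in scl28-3 and 7.76% against 13.1% in wild type. So did SMR10, with 6.48% against 19.0% in scl28-3 and 20.6% against 21.5% in wild type, and SMR5, at 2 to 5 reads.

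Within genotypes, SMR1 had an SD of 0.33 on the log2 scale. Of 6328 tested genes within 1 log2 unit of its level, 96.1% had a lower SD. For SIM this SD was 0.25, with 89.9% of genes of like level below it, and for SMR3 0.26, with 89.8% below. Without wild-type library 1 the SD of SIM was 0.11, with 57.7% of genes below, while SMR1 at 0.19 still had 87.1% below and SMR3 at 0.20 had 87.3% below.

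Across the 6 libraries SIM and SMR1 were more alike than either was to SMR3. In wild-type library 2 SMR3 was below its own mean, while SIM and SMR1 were above theirs. As a description over 6 points that share library, depth and processing, the log2 level of SIM had a Pearson r of 0.92 with SMR1 and 0.81 with SMR3, and SMR1 one of 0.74 with SMR3. The other tested members had r between -0.39 and 0.38 with SIM. Of 16700 genes compared, 759 (4.54%) had r of at least 0.9 with SIM, and SMR1 took place 548 and SMR3 place 1777 in that order. In the order by likeness to SMR1, SIM took place 369 and SMR3 place 2053. The 3 genes most like SIM were AT4G20150 (r = 0.998), AT3G21215 (0.997) and GSNAP (0.997). Those most like SMR1 were SYP41 (0.996), AT3G58600 (0.996) and ARF1 of locus AT1G23490 (0.996).

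Root tips hold dividing and differentiating cells, and bulk RNA cannot tell fewer cells of a type from less RNA per cell. The members' levels were therefore set beside the mean log2 level of 8 mitotic markers and of 9 endodermis markers, in 18 relations over 6 libraries. The mitotic list, relative to its mean, was at 0.15, -0.02 and -0.06 in scl28-3 and at 0.13, -0.02 and -0.19 in wild type. The endodermis list was at 0.03, 0.06 and 0.56 in scl28-3 and at -0.85, -0.07 and 0.28 in wild type. No relation passed adjustment over the 18, and 4 had an unadjusted exact permutation p under 0.05.

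SMR3 was lower where the mitotic markers were higher, with r = -0.93 (exact permutation p = 0.0111, adjusted p = 0.2) and rho = -0.89 (exact permutation p = 0.0333, adjusted p = 0.3). Its r was -0.96 without the 2 libraries farthest from the median of the mitotic level, and -0.98 for deviations from the genotype means. SIM had r = -0.83 with the mitotic markers (exact permutation p = 0.0486, adjusted p = 0.219) and rho = -0.77 (exact permutation p = 0.103, adjusted p = 0.463), and r was -0.92 without those 2 libraries and -0.84 for deviations from genotype means. SMR1 had r = -0.84 (exact permutation p = 0.0486, adjusted p = 0.219) and rho = -0.66 (exact permutation p = 0.175, adjusted p = 0.63), with -0.76 without those 2 libraries and -0.83 for deviations. The r with the mitotic markers was -0.29 for SMR4, -0.32 for SMR5, -0.51 for SMR8, -0.23 for SMR11 and -0.33 for SMR12. That of SMR8 was 0.40 without those 2 libraries. Within a genotype there are 3 libraries, too few for a value of their own.

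With the endodermis markers, SMR3 had r = 0.82 (exact permutation p = 0.0486, adjusted p = 0.219) and rho = 0.89 (exact permutation p = 0.0333, adjusted p = 0.3), with r = 0.86 without the 2 farthest libraries and 0.89 for deviations from genotype means. SIM had r = 0.77 (exact permutation p = 0.0736, adjusted p = 0.221) and rho = 0.37 (exact permutation p = 0.497, adjusted p = 0.79), and its r was 0.17 without wild-type library 1 and scl28-3 library 3, so that this value rests on those libraries. SMR4 had r = 0.78 (exact permutation p = 0.0625, adjusted p = 0.221) and rho = 0.60 (exact permutation p = 0.242, adjusted p = 0.725), with r = 0.55 without those 2 libraries. SMR5, at 2 to 5 reads per library, had r = 0.75 (exact permutation p = 0.0889, adjusted p = 0.229) and rho = 0.26 (exact permutation p = 0.658, adjusted p = 0.79), with r = -0.32 without them. The value of SMR5 thus rests on those libraries too. For deviations from genotype means r was 0.92 for SIM, 0.70 for SMR4 and 0.76 for SMR5. With the same markers r was 0.50 for SMR1, -0.15 for SMR8, 0.31 for SMR11 and 0.15 for SMR12.

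SMR10 had values of the opposite sign to those of SIM and SMR3. It was at 17 to 29 reads per library, with a spread below counting error in both genotypes. With the endodermis markers its r was -0.70 (exact permutation p = 0.128, adjusted p = 0.288) and its rho -0.83 (exact permutation p = 0.0583, adjusted p = 0.35), with r = -0.97 without the 2 farthest libraries. With the mitotic markers its r was 0.63 (exact permutation p = 0.172, adjusted p = 0.344) and its rho 0.49 (exact permutation p = 0.356, adjusted p = 0.79), with r = 0.59 without the 2 farthest libraries. The part of tissue composition in the spread of the members was not tested.

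**Figure D4:**
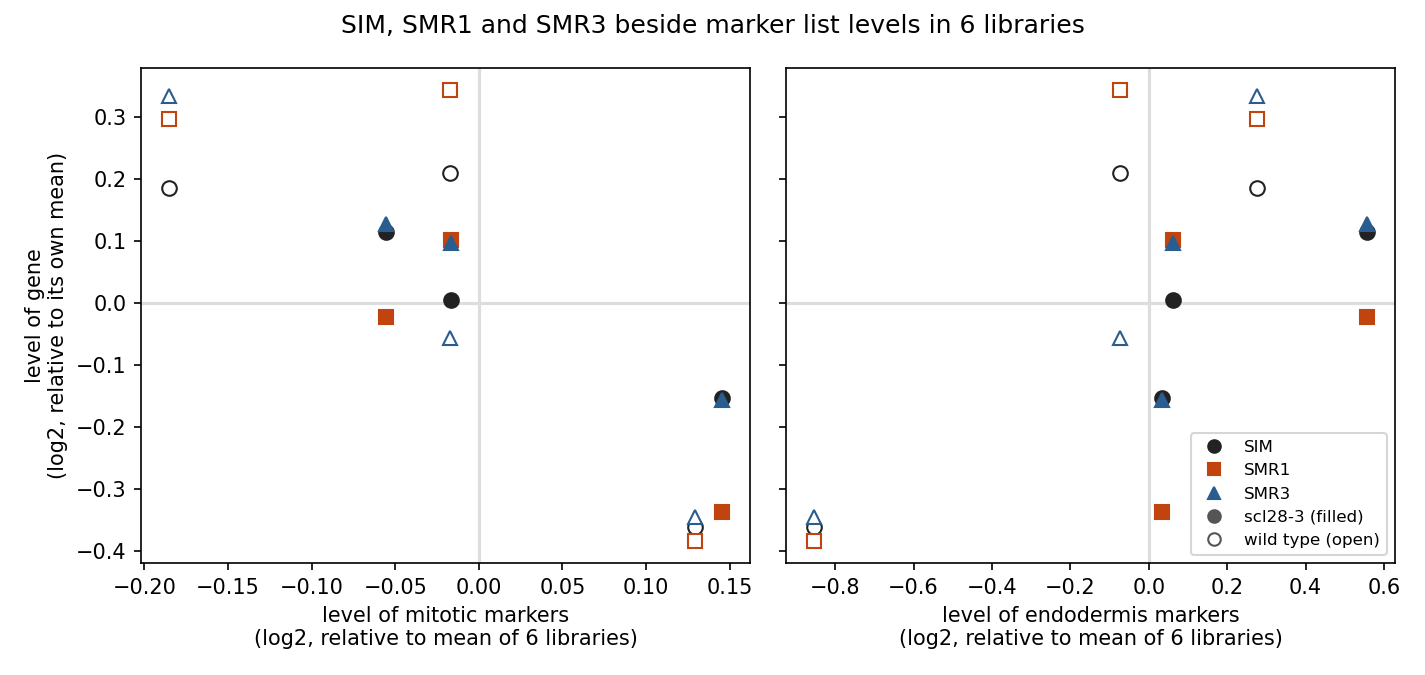
Log2 level of SIM, SMR1 and SMR3, each relative to its own mean, against the level of the mitotic markers (left) and the endodermis markers (right) relative to the mean of 6 libraries, with scl28-3 filled and wild type open. Levels fall from left to right beside the mitotic markers, with r between -0.93 and -0.83, and in the right panel wild-type library 1 lies far to the left at -0.85.

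Genes of the same cell cycle machinery were set beside the members. Over all genes tested 0.0727% were called, so a count of 0 in lists of 5 to 9 genes is no result about those lists. CDKA;1, the main CDK of the plant cell cycle, was at 44.7 CPM per kb over the 6 libraries, beside 60.8 CPM per kb for SIM. The level of SIM depends in part on the unknown strand setting. The KRP proteins form a separate family of CDK inhibitors. Their 7 genes summed to between 43.4 and 44.5 CPM per kb in scl28-3 and between 42.2 and 47.9 CPM per kb in wild type, which the 9 members exceeded 2.83-fold to 3.35-fold in scl28-3 and 2.59-fold to 3.63-fold in wild type. Of the 7 KRP genes limma and edgeR called 0, and KRP6, the only one at an unadjusted p under 0.05, was at 5.86 ± 0.59 CPM in scl28-3 and 8.80 ± 1.70 CPM in wild type (SD, n = 3 each). KRP4, the KRP gene with the highest mean CPM, was at 15.2 ± 1.47 CPM in scl28-3 and 12.3 ± 1.94 CPM in wild type.

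For the 5 A- and B-type CDKs neither limma nor edgeR made a call, and unadjusted limma p values under 0.05 numbered 0. CDKA;1 was at 67.2 ± 5.02 CPM in scl28-3 and 66.8 ± 1.59 CPM in wild type, and CDKB1;1, a mitotic CDK, at 32.1 ± 2.68 CPM in scl28-3 and 37.3 ± 6.63 CPM in wild type. Of 9 tested D-type cyclins, the partners of CDKA;1 in starting the cycle, 7 were below 0 with a median log2 fold change of -0.21, beside 0.01 over all genes. Limma and edgeR called 0 of the 9, and 2 had an unadjusted p under 0.05. CYCD5;1 had the largest difference, at 11.9 ± 1.13 CPM in scl28-3 and 16.2 ± 1.84 CPM in wild type (log2 fold change -0.45 ± 0.13, limma adjusted p = 0.961), and CYCD3;2, highest in mean CPM, was at 48.9 ± 1.33 CPM in scl28-3 and 52.7 ± 2.24 CPM in wild type.

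Of 8 endocycle regulators, limma and edgeR called 0 and 1 had an unadjusted p under 0.05, with 3 below 0 and 5 above. That gene was CCS52A2, an activator of the anaphase-promoting complex, at 8.40 ± 0.56 CPM in scl28-3 and 6.65 ± 0.63 CPM in wild type (log2 fold change 0.30 ± 0.13, limma adjusted p = 0.992). GTL1, a trihelix factor that restrains endoreplication in leaf hairs and has the highest mean CPM of the 8, was at 158.6 ± 12.7 CPM in scl28-3 and 147 ± 7.38 CPM in wild type. Of 6 regulators reported upstream of SIM or SMR genes, SCL28 was the only one called among the 4 tested. Among the 5 SMR genes set apart, SMR2 was at 0.36, 0.42 and 0.42 CPM in scl28-3 and at 1.99, 2.21 and 3.07 CPM in wild type (log2 fold change -1.70 ± 0.22), and the 4 tested had a median log2 fold change of -1.07. Those genes were chosen by this difference, so it is no separate evidence.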

How the data were processed

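RNA of 3 scl28-3 and 3 wild-type root tip samples was analysed. Per the file headers, the authors deposited CPM per gene. The submitters' processing notes list edgeR, HTSeq 0.6.1p1 and HISAT2 2.0.0 as tools and TAIR10 as build. The annotation release and strand setting are not given in the sources used here. Low CPM values were whole multiples of 1 step, so reads were recovered for 100% of values, within 0.1 read. Of 21125 genes in the tables, none is above 0 in fewer than 3 libraries, and 21020 matched TAIR10.1, from which lengths and sequences were taken (RefSeq).

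The main test was limma 3.58.1 (lmFit, eBayes with trend, R 4.3.3) on log2(CPM divided by TMM factor + 0.5), with TMM factors from edgeR 4.0.16. It covered 17879 genes kept by filterByExpr (minimum count 10), with Benjamini-Hochberg adjustment and a threshold of 0.05. edgeR's quasi-likelihood test on recovered reads called 14 genes, limma-voom 14 and DESeq2 1.42.0 18. Levels per kb used the union of exons. Coding sequences were aligned with Biopython 1.88. The fit was tested on simulated data.

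The members and gene lists were chosen with earlier results of these data known. Beside the 9 members and SCL28, the text names, per pathway list, called genes, the highest mean CPM and the largest absolute log2 fold change, and the 3 genes most like SIM and SMR1 with an average log2 level of at least 1. SMR13 was named after its values were seen, as the nearest gene outside the 9. Alternatives covered test, scaling, pseudocount, filter, replicate block, gene length and leaving out each library. The exon length without bases shared with an opposite-strand gene was added after seeing the data. Errors of CPM are SD and those of log2 fold changes SE.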

Additional observations from a re-analysis of the deposited data

How the results depend on the processing

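The members' log2 fold changes, a description of genes chosen with this contrast known, moved by less than 1 within-genotype SD in 119 of 119 refits. Leaving out 1 library can hardly move a genotype mean that far. The replicate block and the other filters returned the main values, so this count is no evidence of stability. SIM ran from -0.21 to 0.08, SMR1 from -0.41 to -0.04 and SMR3 from -0.12 to 0.22. The count of genes lower in scl28-3 (13) ran from 5 to 18 when a library was left out, with 18 without wild-type library 1, 6 without scl28-3 library 2 and 5 without any of the other 4. The count higher stayed at 0. A replicate block on the sample numbers gave 39 genes lower and 23 higher. Nothing in the labels pairs samples by number, and deviations from the genotype means correlated at 0.44, 0.04 and 0.50 for numbers 1, 2 and 3. Of the 6 libraries, 5 correlated best with their own number and wild-type library 2 did not. The cause of the higher counts was not tested. The number of neighbour pairs in the level order that differed (6 of 7) was also 6 per kb of coding sequence, where SMR8 and SMR4 dropped out and SMR4 and SMR11 entered, and 6 without bases shared with an opposite-strand gene, where SIM was 1.34-fold above SMR1 and SMR1 2.66-fold above SMR3. It was 0 without any 1 library, because 5 libraries cannot reach the threshold. The count of relations with marker lists past the threshold stayed at 0 with a pseudocount of 1 CPM, with CPM as deposited and with DESeq2 size factors. Relations were not run without a library, since they need 6. Few reads limit SMR5 and SMR12, at 2 to 7 per library. The strand setting of the counting, which is not given, is a further limit for SMR5 and, over the shared bases, for SIM and SMR1.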
